A study of Mus musculus with 16 samples.

Results

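The genes described here are the long noncoding RNA (lncRNA) genes with the highest counts in mouse Paneth cells. They were chosen as the Ensembl identifiers that GENCODE annotates as lncRNA and that had a mean CPM (read counts scaled to a common library total) of 5 or more over all 16 libraries, each library divided by its own total. This gave 42 genes out of 55414 in the table, of which 9657 were lncRNA genes and 2602 of those had any count. For comparison, 7874 protein-coding genes reached the same level. The libraries came from Paneth cells sorted from the small intestine of C57BL/6J mice. Mice were first injected with PBS, the vehicle, or with DEX, the usual abbreviation of the glucocorticoid dexamethasone, which the sources used here do not spell out. A second injection of PBS or of tumor necrosis factor (TNF) followed 1 h later, and cells were taken 3 h after that. This made 4 groups of 4 libraries. Mice of PBS+PBS received vehicle at both times, PBS+TNF vehicle and then TNF, DEX+PBS the glucocorticoid and then vehicle, and DEX+TNF the glucocorticoid and then TNF. The age of the mice was not given in the sources used here.

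Paneth cells sit at the base of the small intestinal crypts and secrete antimicrobial peptides. TNF signals through its receptors to the transcription factor NF-kB, which binds kappaB sites in the DNA and activates inflammatory genes, and glucocorticoids act through the glucocorticoid receptor, which can hold this activation back. LncRNAs are transcripts without a known long reading frame. Some act in the nucleus, such as Xist, which coats the inactive X chromosome, Malat1, which gathers in nuclear speckles, and Neat1, the scaffold of paraspeckles. Others are hosts that carry small nucleolar RNAs (snoRNAs) in their introns, such as Gas5 and the Snhg genes, and many are named only by a database number because no role is established.

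Total counts ran from 7286307 to 15832111 per library, and normalized CPM values were computed with scaling factors between 0.418 and 1.502. The lowest factors belonged to PBS+TNF library 1 (0.418) and PBS+PBS library 4 (0.503). Levels of a gene in single libraries and group means with SD are normalized CPM, also where only CPM is written. The 5 CPM threshold, the means over all libraries and the marker sums are plain CPM, without these factors. The summed level of 8 Paneth cell markers was 410557 to 610157 CPM. DEX+TNF libraries 3 and 4 stood apart from the other 2 libraries of their group in many of the lncRNAs below, and the comparisons that use this group are given with and without them. Among DEX+TNF libraries the highest sum was 664 CPM for 9 enterocyte markers, 991 CPM for 4 tuft cell markers and 1991 CPM for 6 stem and cycling cell markers. The highest values in the other groups were 186, 205 and 1299 CPM. The sum of 6 goblet cell markers was larger and ran from 3219 to 10239 CPM over all libraries. The part of these markers in the results was not tested.

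The 42 lncRNAs were a small fraction of the RNA. Their share of all counts was 0.0377% to 0.0928% without injected agents (PBS+PBS) and 0.125% to 0.159% with TNF alone (PBS+TNF). For DEX+PBS it was 0.0486% to 0.0855% and for DEX+TNF 0.0682% to 0.122%. Without the gene AW112010 these shares were, in the same order, 0.0356% to 0.0923%, 0.0397% to 0.0886%, 0.0479% to 0.0845% and 0.0671% to 0.0977%, so the groups overlapped once that gene was left out. AW112010 alone carried 25.6% of the 198422 counts of all 42 genes. All 42 genes had counts in every library, the lowest being 4, and all passed the low-count filter of the test. Because the genes were chosen by their mean level, the levels are a description and were not tested.

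AW112010 had the highest mean over all libraries, 246 CPM, followed by Xist (55.6 CPM), Gm43305 (55.2 CPM), Gm15564 (54.7 CPM), Oip5os1 (44.9 CPM) and Malat1 (38.0 CPM). From Xist to Malat1 the library ranges overlapped. Most genes were much lower, with 28 below 20 CPM and 22 below 10 CPM. At the threshold, Snhg1 (5.10 CPM), Gm1965 (5.29 CPM) and 2810013P06Rik (5.37 CPM) were just inside, and 2410006H16Rik (4.97 CPM), Chaserr (4.79 CPM) and Gm36945 (4.63 CPM) just outside. Per kilobase of the canonical transcript, for which the mean of normalized CPM (scaled with the factors above) was used in place of plain CPM, the order was different. AW112010, with a transcript of 450 bases, stood at 654 normalized CPM per kilobase, Gm15564 at 104 and the snoRNA host Snhg18 at 48.7, whereas the long nuclear RNAs Malat1, Xist and Neat1 stood at 5.57, 3.08 and 1.01 normalized CPM per kilobase. The library kit selects poly(A) RNA.

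**Figure D1:**
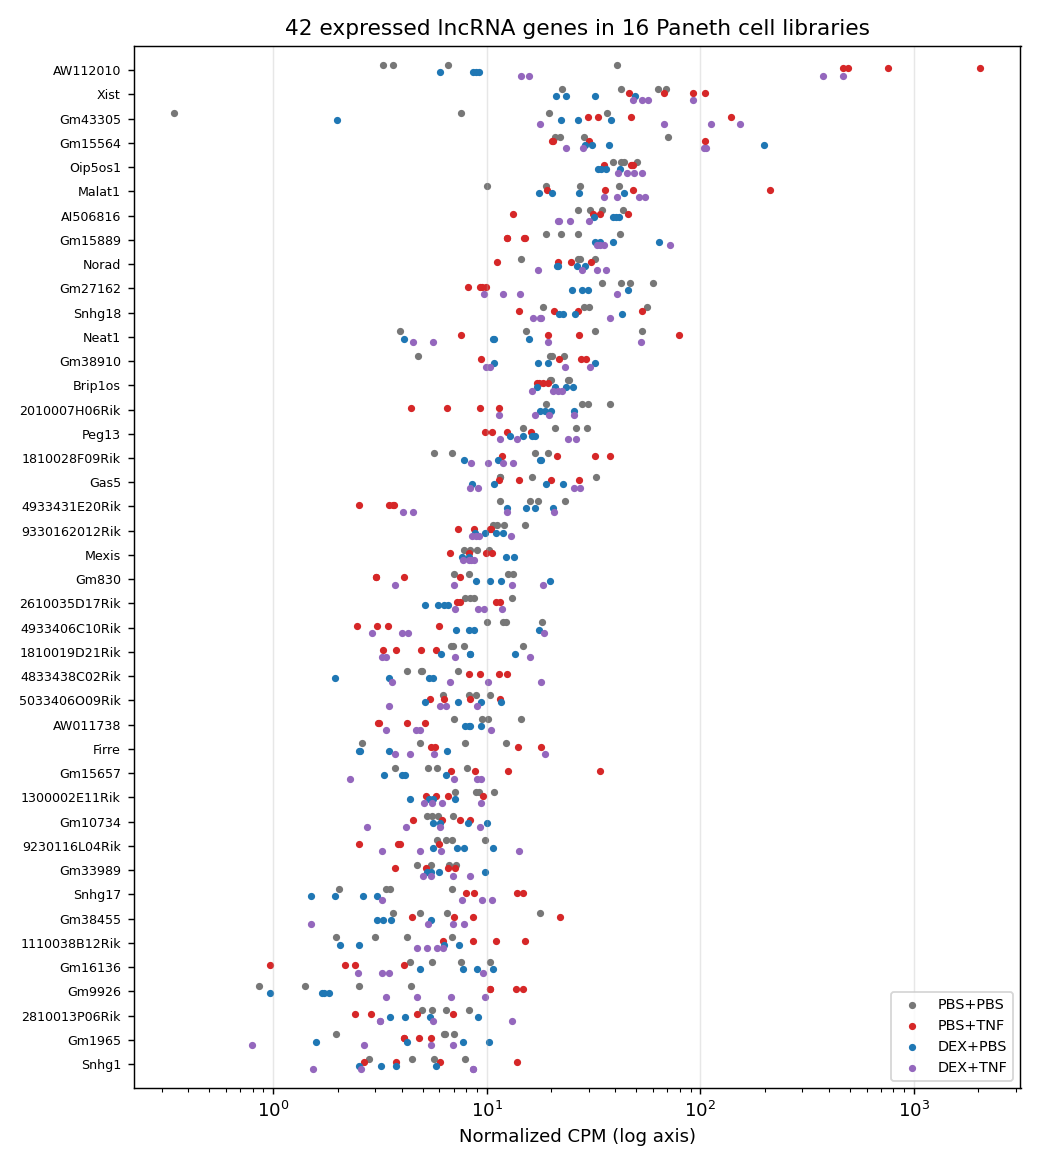
Normalized CPM (log axis) of the 42 lncRNA genes, ordered by mean level, with 1 point per library and the 4 injection groups in separate colors. AW112010 spans 3.26 to 2041 CPM, while Oip5os1 stays between 33.1 and 53.5 CPM.

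The lncRNAs varied between libraries of the same group. The SD of log2 CPM within groups had a median of 0.63 over the 42 genes, against 0.40 over 7873 protein-coding genes of 5 CPM or more that were not matched for level, and ran from 0.17 to 1.87. The steadiest was Oip5os1 (0.17), known as Cyrano, which directs the decay of the microRNA miR-7, followed by Brip1os (0.18). Gm43305 had the largest SD (1.87), from 0.343 CPM in PBS+PBS library 1 to 154 CPM in DEX+TNF library 1, with high and low libraries in every group. Its transcript shares a stretch of 750 bases at 98.7% identity with Gm42031, so its counts depend on how the authors' counting placed such reads, which was not given in the sources used here. The same holds for Norad, a cytoplasmic RNA that binds Pumilio proteins, with 2537 bases at 99.2% identity to Gm7292. AW112010 and Neat1 came next in spread, with SDs of 1.69 and 1.40. In normalized CPM, Gm15564 took 20.2 to 37.5 in 11 libraries and 70.3 to 198 in the other 5, which were spread over all 4 groups. PBS+TNF library 1, whose scaling factor was 0.418, was among these 5.

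In the genome, 21 of the 42 genes were intergenic and 19 shared exon bases with a protein-coding gene, 16 of these on the opposite strand and 3 on the same strand. Of the others, Gm15564 overlaps the interval of the coding gene Parp9 without sharing exon bases, and 2810013P06Rik starts 33 bases from Ankrd11 in the other direction. The kit keeps the strand, but whether the counting used it is not stated, so reads of overlapping genes cannot be told apart with certainty.

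Promoters of 4 genes are shown because their RNA levels changed with an injection or because they sit at the NF-kB gene Nfkb2. Each sequence covers 250 bases before to 50 bases after the start of the canonical transcript, read 5′ to 3′ on the strand of the gene from GRCm39 with GENCODE M39 starts. Capitals mark matches on either strand to the kappaB-type letters (GGG and CC with any 5 bases between), the interferon-response letters (GAAA and GAAA with any 2 bases between) or the glucocorticoid-type letters ACANNNTGT. AW112010 is the window chr19:11033145-11033444 on the minus strand, 4833438C02Rik chr19:46294026-46294325 on the minus strand, Gm27162 chr9:32840390-32840689 on the minus strand and Gm15889 chr8:95102719-95103018 on the plus strand.
AW112010: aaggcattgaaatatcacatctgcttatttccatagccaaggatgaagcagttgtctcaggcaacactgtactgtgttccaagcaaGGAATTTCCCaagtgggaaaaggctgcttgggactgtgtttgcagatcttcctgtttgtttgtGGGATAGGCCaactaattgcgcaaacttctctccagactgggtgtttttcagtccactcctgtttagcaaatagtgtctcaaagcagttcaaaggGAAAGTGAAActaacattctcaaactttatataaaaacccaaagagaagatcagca
4833438C02Rik: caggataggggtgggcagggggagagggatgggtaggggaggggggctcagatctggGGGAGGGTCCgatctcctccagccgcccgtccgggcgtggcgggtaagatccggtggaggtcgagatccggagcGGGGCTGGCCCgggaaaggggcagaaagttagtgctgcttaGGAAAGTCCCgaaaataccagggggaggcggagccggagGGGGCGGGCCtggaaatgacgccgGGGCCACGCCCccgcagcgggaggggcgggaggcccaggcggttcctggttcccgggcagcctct
Gm27162: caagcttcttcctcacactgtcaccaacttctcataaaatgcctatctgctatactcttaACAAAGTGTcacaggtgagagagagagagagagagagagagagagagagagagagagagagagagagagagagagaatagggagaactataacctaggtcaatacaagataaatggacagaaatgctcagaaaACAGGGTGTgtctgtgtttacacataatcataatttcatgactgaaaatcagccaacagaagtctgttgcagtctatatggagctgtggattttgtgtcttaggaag
Gm15889: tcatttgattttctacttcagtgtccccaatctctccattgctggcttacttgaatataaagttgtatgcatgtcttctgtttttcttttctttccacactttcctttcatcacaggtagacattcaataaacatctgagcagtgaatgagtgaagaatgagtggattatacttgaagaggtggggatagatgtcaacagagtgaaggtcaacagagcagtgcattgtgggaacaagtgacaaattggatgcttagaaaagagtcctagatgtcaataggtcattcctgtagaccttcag

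Counted from 0 at the first transcribed base, AW112010 held kappaB-type matches starting at -164 and -101 and an interferon-response match at -6. The window of 4833438C02Rik held 7 kappaB-type matches, some of which overlap one another, Gm27162 held glucocorticoid-type matches at -190 and -57, and Gm15889 held none of the 3 motifs. These letters are common. The kappaB-type motif occurred in 49.8% of 31284 promoter windows of the same length and in 23 of the 42 lncRNA windows, or 54.8%. It occurred in 64.0% of the windows of tested genes and in 39.2% of the windows of all lncRNA genes. The interferon-response motif occurred in 3.83% of all windows and in 5 of the 42, and the glucocorticoid motif in 6.67% of all windows and in 1 of the 42. A match is a description of the sequence and not a bound site.

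TNF given after PBS changed 12 of the 42 lncRNAs, 4 of them higher and 8 lower. Genes were called at an adjusted p under 0.05 in edgeR's quasi-likelihood test, adjusted over all 11809 tested genes by the Benjamini-Hochberg method, and log2 fold changes come from that fit. The 12 genes are 28.6% of the 42. The same test called 12.5% of all genes, 7.15% as higher and 5.35% as lower, 14.1% of the protein-coding genes with 5 CPM or more and 11.9% of all 412 tested lncRNA genes. The threshold on the mean includes the TNF libraries, so it favors genes that TNF raises. Snhg17, 1110038B12Rik and Gm9926 had plain means below 5 CPM in PBS+PBS. So did Snhg1, which was not called (plain mean 4.78 CPM, normalized mean 5.21 CPM). With membership set on the PBS+PBS libraries alone, the call counted 10 of 40 genes. In bulk RNA of sorted cells, a lower share of a cell type and less RNA per cell cannot be told apart. The sum of 9 enterocyte markers moved with TNF as well, and lay between 83.0 and 186 CPM in PBS+PBS libraries and between 30.25 and 77.2 CPM in PBS+TNF libraries, without overlap. Its part in the result was not tested. Over the 42 genes the median log2 fold change was -0.07, against -0.03 over all tested genes.

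AW112010 had the largest response. It is annotated as noncoding although it is known from immune cells, where it is induced in inflammation and a short peptide is translated from it. The gene lies at chr19:11021549-11033246. In PBS+PBS its normalized level was 3.26, 6.58, 3.63 and 40.6 CPM, and in PBS+TNF 2041, 491, 758 and 464 CPM. In plain CPM the group means were 8.95 and 738. Every PBS+TNF library was above every PBS+PBS library, and PBS+PBS library 4 stood above the rest of its group. The log2 fold change was 6.14 (SE 1.20, adjusted p = 0.00414). The nearest coding gene, Ms4a8a, which starts 25220 bases away, had a log2 fold change of 1.09 (SE 0.47, adjusted p = 0.142). Because immune cells express AW112010, the sum of 7 immune cell markers is given beside it, in plain CPM. It lay between 9.36 and 119 CPM in PBS+PBS libraries and between 16.1 and 196 CPM in PBS+TNF libraries, and the T cell gene Cd3e and the natural killer cell gene Nkg7 were at 0 in all libraries. The part of these markers in the result was not tested.

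The other 3 lncRNAs that rose were Gm9926 and the snoRNA hosts Snhg17 and 1110038B12Rik. Gm9926 stood at 0.857, 1.40, 2.51 and 4.40 CPM in PBS+PBS and at 13.7, 10.4, 14.7 and 10.4 CPM in PBS+TNF, and the groups did not overlap. Its log2 fold change was 2.45 (SE 0.42, adjusted p = 0.00194). The nearest coding gene is Pmaip1, which encodes the proapoptotic BH3-only protein NOXA and starts 45598 bases away, and it rose too, by 1.28 on the log2 scale (SE 0.36, adjusted p = 0.0266). Snhg17 stood at 3.51, 2.04, 6.89 and 3.39 CPM in PBS+PBS and at 13.9, 7.96, 14.8 and 8.67 CPM in PBS+TNF. All 4 PBS+TNF libraries were higher, with a log2 fold change of 1.49 (SE 0.40, adjusted p = 0.0208). This call was lost when any of 4 single libraries, PBS+PBS 1 or 2 or PBS+TNF 1 or 3, was left out. The level of 1110038B12Rik lay between 1.97 and 6.91 CPM in PBS+PBS libraries and between 6.21 and 15.03 CPM in PBS+TNF libraries, so these groups overlapped, and the log2 fold change of 1.35 (SE 0.42, adjusted p = 0.0452) lost its call without any of 9 single libraries. The naming rule did not cover it or Peg13, and they are named as the remaining called genes.

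**Figure D2:**
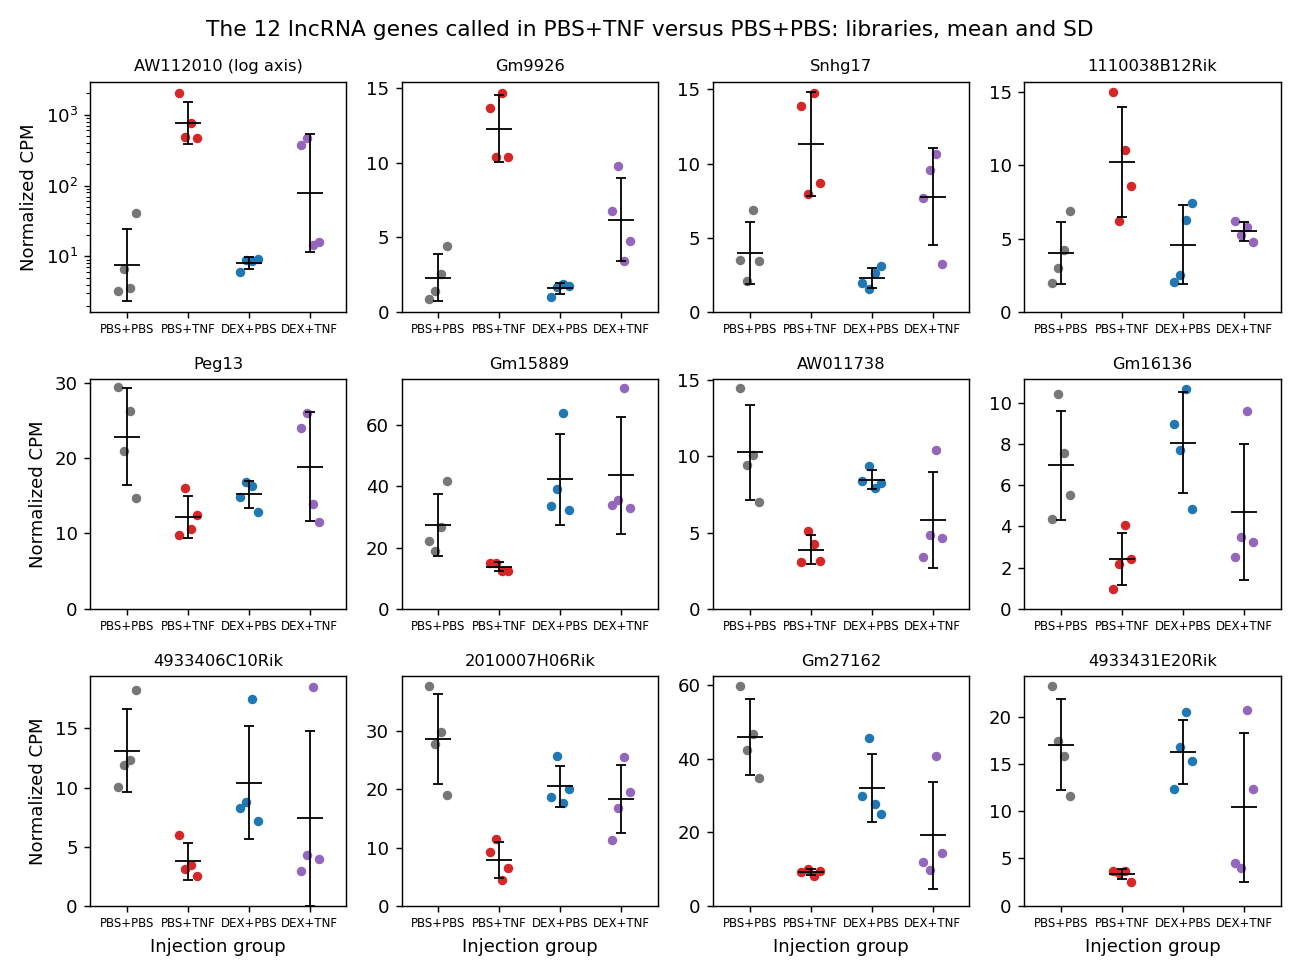
Normalized CPM of the 12 lncRNA genes that TNF changed in the absence of DEX, with 1 point per library and bars for the mean and SD of each injection group of 4. The AW112010 panel has a log axis and shows the mean and SD of log2 CPM. DEX+TNF library 3 sits highest of its group in Gm27162 (40.7 CPM), Gm15889 (72.1 CPM) and 4933406C10Rik (18.5 CPM).

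Of the 8 lncRNAs that fell, Gm27162, 4933431E20Rik and 2010007H06Rik fell the most. Gm27162, an intergenic gene at chr9:32813729-32840439, stood at 59.7, 42.5, 46.8 and 34.8 CPM in PBS+PBS and at 9.25, 9.95, 8.16 and 9.46 CPM in PBS+TNF. The PBS+TNF libraries lay close together and below the PBS+PBS libraries without overlap, and the gene fell by 2.32 on the log2 scale (SE 0.37, adjusted p = 0.00128). Its nearest coding gene, Ets1, which encodes a transcription factor, starts 292922 bases away and had a log2 fold change of -0.68 (SE 0.24, adjusted p = 0.0730). 4933431E20Rik, at chr3:107796166-107818661, stood at 23.2, 17.4, 15.9 and 11.6 CPM in PBS+PBS and at 3.66, 3.497, 3.66 and 2.53 CPM in PBS+TNF, and fell by 2.36 (SE 0.43, adjusted p = 0.00239). It shares 964 exon bases on the opposite strand with Eps8l3, a gene of the EPS8 family of actin regulators, which moved the other way. Eps8l3 rose from 34.6 ± 7.16 to 140 ± 32.9 CPM (SD, n = 4 each), a log2 fold change of 2.01 (SE 0.37, adjusted p = 0.00262).

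2010007H06Rik and Pou2af3, which overlap by 286 exon bases on opposite strands of chromosome 9, fell together. The lncRNA stood at 37.8, 27.8, 29.8 and 18.97 CPM in PBS+PBS and at 9.25, 11.4, 4.43 and 6.49 CPM in PBS+TNF, without overlap, and fell by 1.87 on the log2 scale (SE 0.31, adjusted p = 0.00134). Pou2af3, which encodes a coactivator of POU2F3, the transcription factor that defines tuft cells, went from 26.5 ± 10.7 to 3.56 ± 0.867 CPM (SD, n = 4 each) with a log2 fold change of -2.91 (SE 0.48, adjusted p = 0.00147). The sum of 4 tuft cell markers lay between 2.05 and 59.0 CPM in PBS+PBS libraries and between 5.07 and 205 CPM in PBS+TNF libraries. The ratio of 2010007H06Rik to Pou2af3 counts ran from 0.799 to 5.47 over the libraries, so the counts of the genes were not in a fixed proportion.

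The remaining lncRNAs that fell were lower in level. 4933406C10Rik stood at 10.02, 11.9, 12.3 and 18.2 CPM in PBS+PBS and at 5.97, 3.07, 3.45 and 2.48 CPM in PBS+TNF, and fell by 1.86 on the log2 scale (SE 0.51, adjusted p = 0.0232). It starts 557 bases from Sypl1, a vesicle membrane protein gene with which it overlaps on the opposite strand, and Sypl1 fell by 0.90 (SE 0.22, adjusted p = 0.0129). AW011738 stood at 14.5, 9.45, 10.1 and 7.03 CPM and at 3.08, 5.12, 4.22 and 3.12 CPM, and fell by 1.39 (SE 0.32, adjusted p = 0.00937). Its neighbor 2353 bases away is the ubiquitin-like interferon-induced gene Isg15, at 0.381 ± 0.226 CPM in PBS+PBS and 1.87 ± 0.962 CPM in PBS+TNF (SD, n = 4 each), with a log2 fold change of 2.24 (SE 0.79, adjusted p = 0.0717) that missed the threshold.

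Gm16136, which overlaps the epithelial transcription factor gene Grhl2, stood at 4.37, 10.4, 7.58 and 5.53 CPM in PBS+PBS and at 0.963, 2.17, 4.08 and 2.43 CPM in PBS+TNF and fell by 1.49 (SE 0.45, adjusted p = 0.0387). Grhl2 had a log2 fold change of -0.46 (SE 0.23, adjusted p = 0.213). Peg13, an imprinted gene within the Trappc9 locus, ran from 14.7 to 29.5 CPM in PBS+PBS and from 9.82 to 16.0 CPM in PBS+TNF, overlapping, and fell by 0.90 (SE 0.28, adjusted p = 0.0415), whereas Trappc9 itself had a log2 fold change of 0.14 (SE 0.21, adjusted p = 0.728). The calls of Gm16136 and Peg13 were lost without any of 6 and 10 single libraries, and that of 4933406C10Rik without any of PBS+TNF 2, 3 or 4. The calls of AW112010, Gm9926, Gm27162, 2010007H06Rik, 4933431E20Rik and AW011738 held in all 16 such runs.

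**Figure D3:**
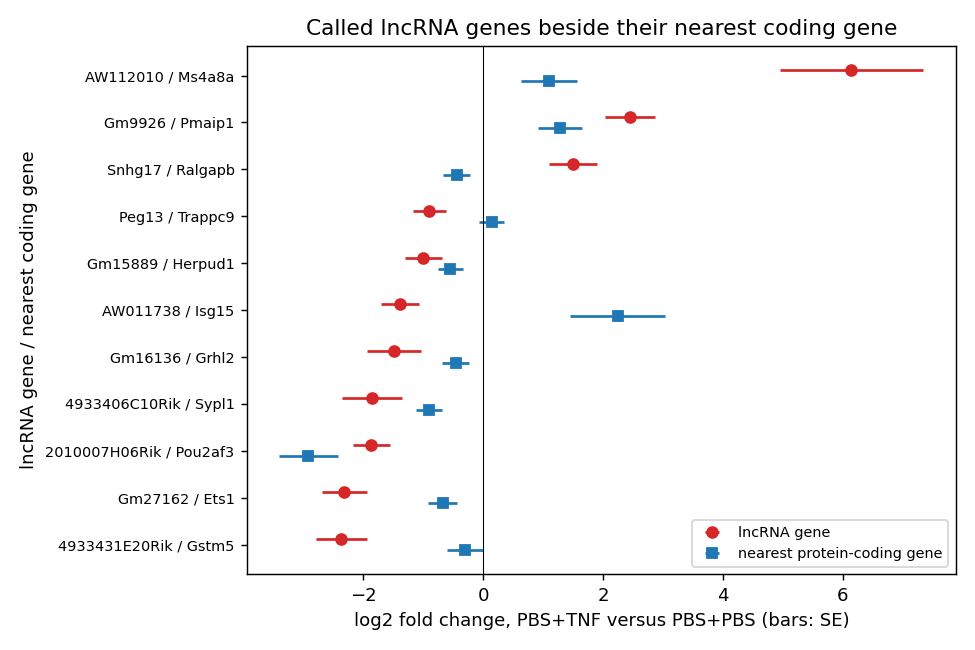
Log2 fold change in PBS+TNF versus PBS+PBS (bars, SE) of 11 called lncRNA genes and of the protein-coding gene whose start is nearest. 1110038B12Rik is left out because its nearest coding gene was not tested. Gm9926 and Pmaip1 were both higher, 2010007H06Rik and Pou2af3 both lower, and AW011738 (-1.39) and Isg15 (2.24) lay on opposite sides of 0.

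The lncRNAs known by name mostly did not pass the test with TNF. Malat1 was 27.2, 10.02, 19.01 and 41.5 CPM in PBS+PBS and 211, 35.8, 48.2 and 19.1 CPM in PBS+TNF, and its log2 fold change of 1.68 (SE 0.59, adjusted p = 0.0699) rested in large part on PBS+TNF library 1, without which it was 0.49. That library had the lowest scaling factor, 0.418, and its raw Malat1 count was 1094, beside 594, 685 and 386 in PBS+TNF libraries 2 to 4. DESeq2 called Malat1 (log2 fold change 1.72, adjusted p = 0.0201). Xist, at 22.5 to 68.8 and 46.5 to 105 CPM, had a log2 fold change of 0.65 (SE 0.36, adjusted p = 0.266), and Neat1, at 3.94 to 53.4 and 7.60 to 79.5 CPM, one of 0.35 (SE 0.82, adjusted p = 0.850). Gas5, a snoRNA host whose RNA can bind the glucocorticoid receptor, stood at 17.97 ± 9.89 and 18.1 ± 6.87 CPM (SD, n = 4 each), with a log2 fold change of 0.01 (SE 0.45) whose sign changed with upper-quartile scaling to -0.10. Oip5os1 had a log2 fold change of 0.02 (SE 0.17). Snhg1 had one of 0.30 (SE 0.55).

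4833438C02Rik, which overlaps Nfkb2 by 1081 exon bases on the opposite strand, stood at 7.37, 4.21, 4.97 and 4.90 CPM in PBS+PBS and at 8.28, 12.5, 11.4 and 9.31 CPM in PBS+TNF. All 4 PBS+TNF libraries were above the PBS+PBS libraries, and the log2 fold change of 0.96 (SE 0.40, adjusted p = 0.134) missed the threshold. Nfkb2, an NF-kB subunit, rose from 18.5 ± 3.85 to 179 ± 29.5 CPM (SD, n = 4 each), a log2 fold change of 3.27 (SE 0.64, adjusted p = 0.00382). The count ratio of the lncRNA to Nfkb2 ranged from 0.0431 to 0.516 over the libraries. This gene, like Brip1os and Snhg18, lies outside the naming rule and was named after its values had been seen.

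By known roles, 12 of 25 listed nuclear or chromatin-associated lncRNAs were tested and none was called in any of the 5 contrasts. Over all tested genes 12.5% were called with TNF after PBS and at most 0.339% in any other contrast. Of 21 listed snoRNA hosts 16 were tested, with Snhg17 and 1110038B12Rik called higher with TNF and none lower. Those 2 are 12.5% of the 16, beside 12.5% of all tested genes called in either direction and 7.15% called higher, and the median log2 fold change was 0.32 against -0.03 over all tested genes. None of 4 tested microRNA hosts of 24 listed was called, beside the same 12.5% of all tested genes with TNF after PBS. Of 11 lncRNAs listed for cytokine or endotoxin responses 4 were tested, and AW112010 and Gm16685 were called higher. Both are on that list because they are known to respond to inflammatory signals.

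**Figure D4:**
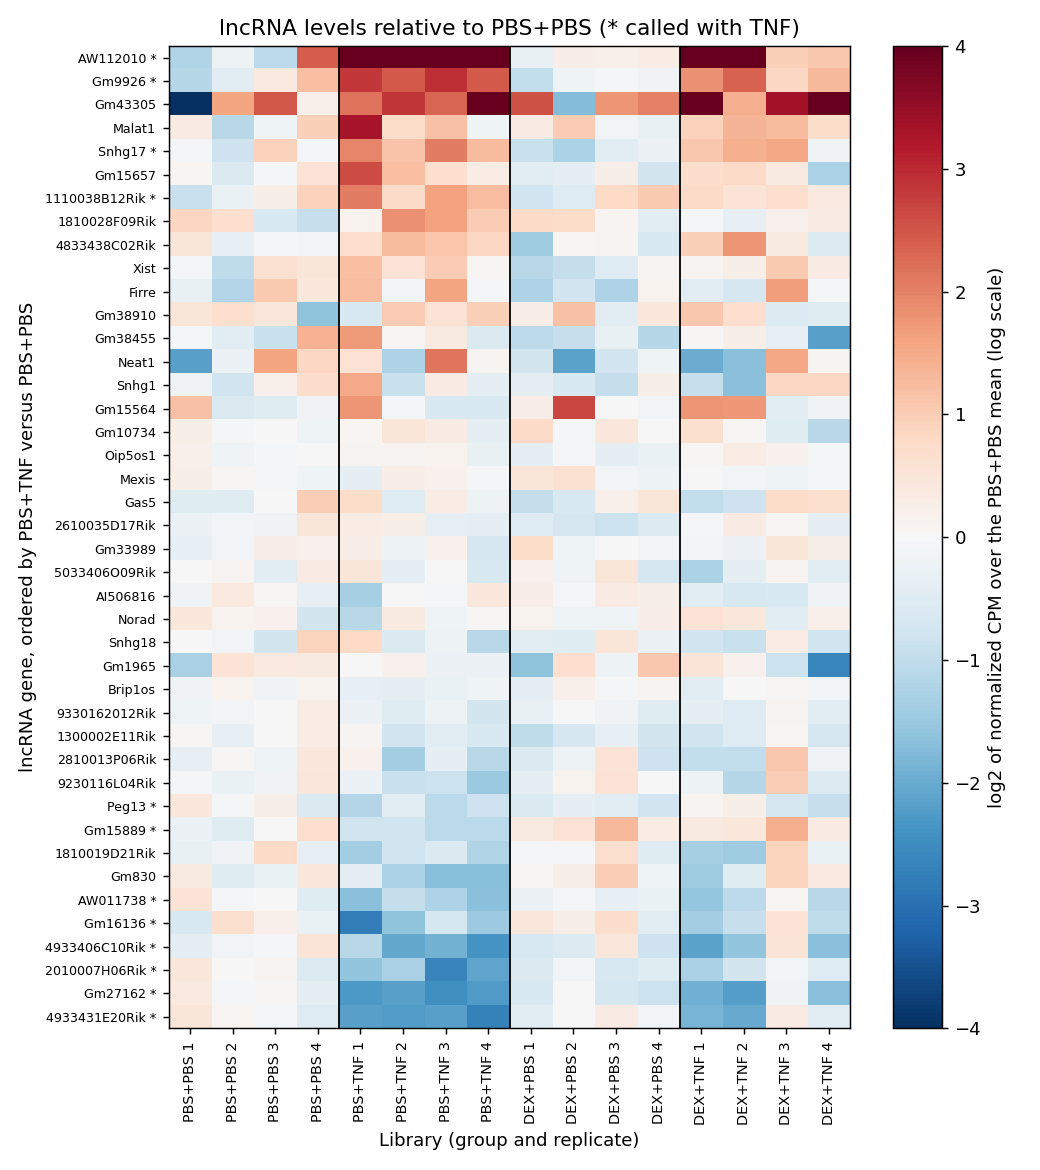
Log2 of normalized CPM of each lncRNA gene in each of the 16 libraries relative to the mean log2 level in PBS+PBS, with genes ordered by log2 fold change with TNF and asterisks on the 12 called genes. The color scale ends at 4 in both directions. DEX+TNF libraries 3 and 4 show AW112010 at 14.5 and 15.8 CPM, against 373 and 466 CPM in libraries 1 and 2.

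No lncRNA of the 42 was called with DEX given without TNF. On simulated counts, with changed genes picked at random from all tested genes, this comparison called 14.4% of those changed by 1 on the log2 scale. It called 71.9% of those changed by 2. The rates for the 42 lncRNAs themselves were not simulated. At an unadjusted p under 0.05 edgeR marked 3, all lower, and DESeq2 called 0. The background was low too, with 0.00847% of all genes called by edgeR, 0.0594% by DESeq2 and 1.90% at an unadjusted p under 0.05. The lowest p belonged to 2610035D17Rik, which was 7.88, 8.68, 8.38 and 13.2 CPM in PBS+PBS and 6.55, 5.91, 5.15 and 6.32 CPM in DEX+PBS. In normalized CPM all DEX+PBS libraries were below the PBS+PBS libraries, and the fitted difference was -0.66 on the log2 scale (SE 0.24, edgeR adjusted p = 1). Before scaling the groups overlapped. DEX+PBS library 4 had 124 counts of this gene, and PBS+PBS library 4 had 105 from a larger total. 1300002E11Rik (-0.68, SE 0.26) and Peg13 (-0.59, SE 0.27) followed, with overlapping groups. The median log2 fold change over the 42 genes was -0.21 against -0.02 over all tested genes, and 15 of the 42 were above 0 against 47.0% of all tested genes.

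With DEX before TNF, Gm15889 was the only lncRNA called against PBS+TNF. This intergenic gene at chr8:95102969-95108084 stood at 15.03, 15.01, 12.4 and 12.5 CPM in PBS+TNF and at 34.0, 35.5, 72.1 and 32.9 CPM in DEX+TNF. All 4 DEX+TNF libraries were above the highest PBS+TNF library, with a log2 fold change of 1.67 (SE 0.31, adjusted p = 0.0295). Among all genes 0.339% were called in this comparison. The call was lost when only the groups compared were fitted (adjusted p = 0.0999), without any of the 4 PBS+TNF libraries or without DEX+TNF library 3 or 4, and without both DEX+TNF libraries 3 and 4 the log2 fold change was 1.34 (adjusted p = 0.244).

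Across the design, Gm15889 was lowest in PBS+TNF. Its level was 22.3, 18.96, 26.8 and 41.95 CPM in PBS+PBS and 33.7, 39.1, 64.1 and 32.2 CPM in DEX+PBS, and both groups lay above the PBS+TNF libraries. Against PBS+PBS it fell with TNF by 1.00 on the log2 scale (SE 0.31, adjusted p = 0.0417), a comparison that shares the PBS+TNF libraries with the one above and that lost its call without any of 8 single libraries. In DEX+TNF versus DEX+PBS the log2 fold change was 0.04 (SE 0.30, adjusted p = 0.997), and the difference between the TNF effects after DEX and after PBS was 1.04 (SE 0.43, adjusted p = 0.877), which missed the threshold. The nearest coding gene, Herpud1, a component of the degradation machinery of the endoplasmic reticulum, starts 10053 bases away. It had log2 fold changes of -0.55 (SE 0.21, adjusted p = 0.0984) with TNF after PBS and of 0.74 (SE 0.21, adjusted p = 0.143) in DEX+TNF versus PBS+TNF.

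Of the other lncRNAs in DEX+TNF versus PBS+TNF, 4933431E20Rik had a log2 fold change of 1.65 (SE 0.42, adjusted p = 0.0992), with DEX+TNF levels of 4.52, 4.04, 20.7 and 12.4 CPM. 2010007H06Rik had one of 1.22 (SE 0.30, adjusted p = 0.0938), with levels of 11.4, 16.8, 25.5 and 19.6 CPM. DESeq2 called these and Gm15889, 3 genes in all, and 2.32% of all tested genes. AW112010 was 373, 466, 14.5 and 15.8 CPM in DEX+TNF, in pairs of high and low libraries, and its log2 fold change of -2.11 (SE 0.99, adjusted p = 0.416) did not pass. In this comparison 12 of the 42 genes had an unadjusted p under 0.05, which is 28.6%, against 11.9% of all tested genes. Without DEX+TNF libraries 3 and 4 the log2 fold change was 0.38 (SE 0.30, adjusted p = 0.626) for 4933431E20Rik, 0.85 (SE 0.33, adjusted p = 0.453) for 2010007H06Rik and -1.16 (SE 0.86, adjusted p = 0.609) for AW112010. In that run edgeR called 0 of the 42 lncRNAs and 0% of all genes, with 8 lncRNAs and 9.87% of all genes at an unadjusted p under 0.05.

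TNF after DEX, DEX+TNF versus DEX+PBS, called none of the 42 lncRNAs in edgeR, and 0.339% of all genes. At an unadjusted p under 0.05 edgeR marked 8, against 10.4% of all tested genes. DESeq2 called 3 lncRNAs and 2.2% of all tested genes. The lowest p belonged to Gm9926, Snhg17 and AW112010, which were also the 3 genes DESeq2 called. Gm9926 was 0.971, 1.69, 1.83 and 1.73 CPM in DEX+PBS and 6.78, 9.78, 3.37 and 4.74 CPM in DEX+TNF, without overlap (log2 fold change 1.96, SE 0.43, edgeR adjusted p = 0.0636). Snhg17 was 1.94, 1.51, 2.63 and 3.06 CPM and 7.66, 9.54, 10.6 and 3.24 CPM, with DEX+TNF library 4 barely above DEX+PBS (1.75, SE 0.41, edgeR adjusted p = 0.0946). AW112010 was 6.07, 8.92, 8.59 and 9.23 CPM in DEX+PBS, below all DEX+TNF libraries (4.72, SE 1.12, edgeR adjusted p = 0.0980).

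The outcome depended on DEX+TNF libraries 3 and 4. With both left out, 9 of the 42 lncRNAs and 10.5% of all tested genes were called in DEX+TNF versus DEX+PBS, among them AW112010 (5.67, edgeR adjusted p = 0.000526), Gm9926 (2.39, 0.00173), Snhg17 (1.90, 0.00659), Gm27162 (-1.57, 0.00171) and 4933431E20Rik (-1.92, 0.000720). With library 3 or library 4 alone left out, 4 were called, against 3.01% and 1.93% of all tested genes. These libraries were chosen for this run because their response to TNF was already known to be small, so these counts are a description and not a further test. With both left out, the group held only DEX+TNF libraries 1 and 2, which were the most alike of 24 pairs of libraries within groups. Among the 12 genes called with TNF after PBS, DEX+TNF library 3 stayed short of the PBS+TNF range and inside the range of the 8 libraries without TNF for 8 genes and library 4 for 6, against 2 and 3 for libraries 1 and 2.

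**Figure D5:**
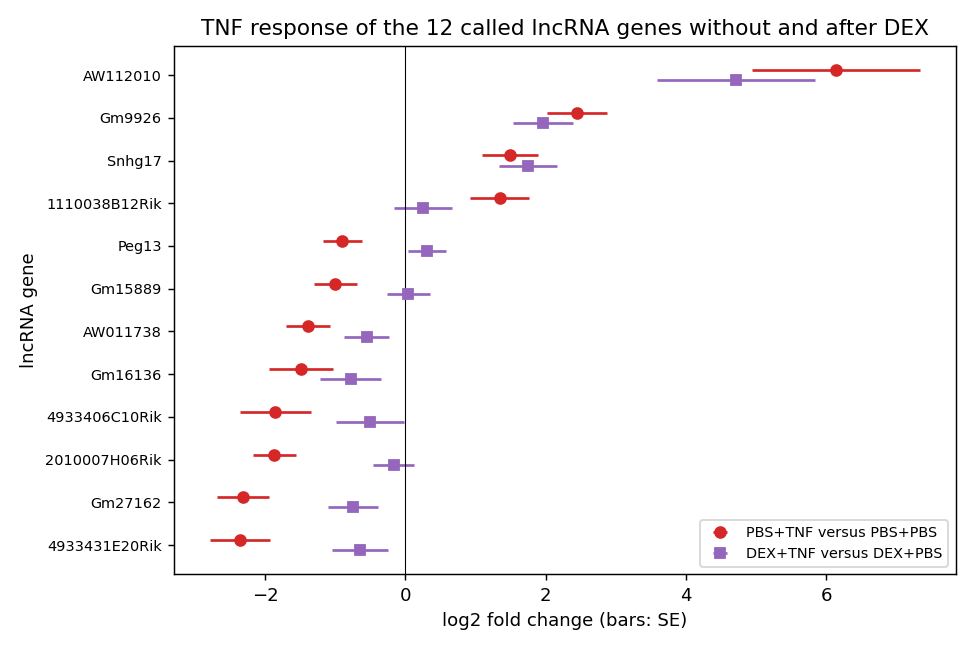
Log2 fold change with TNF (bars, SE) of the 12 called lncRNA genes without DEX (PBS+TNF versus PBS+PBS) and after DEX (DEX+TNF versus DEX+PBS). After DEX 11 of the 12 values are smaller in size, the exception being Snhg17 (1.49 and 1.75).

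The 2 TNF comparisons share no libraries. Of the 12 lncRNAs called without DEX, 10 had the same sign after DEX, 3 of them with an unadjusted p under 0.05, and 11 were smaller in size. Among all genes called without DEX, 94.3% had the same sign after DEX and 97.2% were smaller in size. Without DEX+TNF libraries 3 and 4 these counts were 11 with the same sign, 8 of them with an unadjusted p under 0.05, and 11 smaller in size, against 96.9% and 78.3% of all genes called without DEX. The genes were selected on the first comparison, so this count is no test of a difference. The difference itself, the interaction, was called for none of the 42 lncRNAs and for 0% of all tested genes in edgeR. At an unadjusted p under 0.05 were 6 of the 42 lncRNAs and 642 genes, which is 5.44% of all tested genes. DESeq2 called 0 of the 42 and 0.0763% of all tested genes. On simulated counts the edgeR interaction test called 1.08% of randomly picked genes changed by 1 on the log2 scale and 28% of those changed by 2. Without DEX+TNF libraries 3 and 4 edgeR also called 0, with 5 lncRNAs and 5.51% of all genes at an unadjusted p under 0.05. The lowest p was that of 2010007H06Rik, which fell with TNF after PBS and had a log2 fold change of -0.17 (SE 0.29) after DEX, a difference of 1.70 (SE 0.42, edgeR adjusted p = 0.727).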

How the data were processed

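RNA-seq libraries were made by the authors with a stranded mRNA kit from Paneth cell RNA, 4 libraries per injection group. The authors deposited raw read counts per Ensembl gene. The submitters' processing notes name FastQC 0.12, STAR 2.7.10a and DESeq2, with the mouse mm39 assembly (GRCm39). The program that counted the reads, its strand setting and its handling of reads that match several genes are not given in the sources used here. Identifiers missing from GENCODE M39 carried 0.00519% of the counts.

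Genes were kept with filterByExpr (11809 genes), scaled with TMM factors and fitted over all 16 libraries with a mean per group in edgeR 4.0.16 (robust quasi-likelihood). P-values were adjusted by Benjamini-Hochberg over all tested genes in each of 5 contrasts, and an adjusted p under 0.05 was called. The SE is the size of a log2 fold change over the square root of F. The test was checked on simulated counts with known changes in randomly picked genes. The simulated counts were drawn from library totals without scaling factors, and the lncRNAs were not simulated as a set. In the pairwise contrasts it called 12% to 23.2% of genes changed by 1 on the log2 scale. Of those changed by 2 it called 63.1% to 76.3%. For the interaction these shares were 1.08% and 28%. A count of 0 called genes therefore does not exclude changes of this size. The study describes each sequenced sample as the cells of a single mouse, while the labels do not name the mouse behind each library. The lowest chi-square per degree of freedom among 24 pairs of libraries within groups was 8.78, so no library was an exact copy of another. That pair was DEX+TNF libraries 1 and 2, and the next lowest value was 23.5, for PBS+PBS libraries 2 and 3. Copies were searched with BLAST 2.17.0 at 95% identity over 100 bases.

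The lncRNA genes and the gene lists were chosen with earlier results of these data known. Genes named were called genes without overlap between groups (up to 12 increases and 8 decreases per contrast), the 10 highest in level, the 3 with the largest SD, 3 on each side of the threshold, well-known lncRNAs and, where a contrast called none, the 3 with the lowest p. Alternatives were DESeq2 1.42.0, other scaling, no low-count filter, the replicate number as a block, only the groups compared, left-out libraries, a stricter threshold and other member rules.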

Additional observations from a re-analysis of the deposited data

Results flagged for a closer look

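In groups of 4, a library whose gap to its nearest neighbor exceeded Dixon's 95% critical value, taken as a share of the group's range, was looked for in 25 named genes. This was so in 16 of 100 groups. The critical value holds for independent normal samples. These groups reuse the same 16 libraries, the CPM values were not log-transformed and 3 genes were named for their large SD. The 16 groups are therefore a description and were not compared with a number given by chance. DEX+TNF library 3 was high in 4 genes that TNF lowered after PBS. It stood at 40.7 CPM for Gm27162 (others 9.70 to 14.3), 18.5 CPM for 4933406C10Rik (others 2.90 to 4.29), 9.59 CPM for Gm16136 (others 2.50 to 3.48) and 72.1 CPM for Gm15889 (others 32.9 to 35.5). These values include the scaling factors. In raw counts of DEX+TNF libraries 1 to 4, Gm15889 was 421, 439, 706 and 659, and Gm27162 was 148, 120, 399 and 286. 4933406C10Rik was 36, 53, 181 and 80, and Gm16136 was 31, 43, 94 and 65. Library 3 was the highest in each, followed by library 4, and the gap between them widened with the scaling. DEX+PBS library 3 was also high in 4933406C10Rik, at 17.5 CPM (others 7.14 to 8.74). Its raw count of 153 stood beside 68, 145 and 140 in DEX+PBS libraries 1, 2 and 4.

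Gm15564 had a high library in 3 groups, at 70.3 CPM in PBS+PBS library 1 (others 20.9 to 28.4), 105 CPM in PBS+TNF library 1 (others 20.2 to 30.1) and 198 CPM in DEX+PBS library 2 (others 28.8 to 37.5). The scaling factor of PBS+TNF library 1 was 0.418, and its raw count of 546 stood beside 500, 289 and 407 in PBS+TNF libraries 2 to 4. PBS+PBS library 4 was high in AW112010 at 40.6 CPM (others 3.26 to 6.58) and in 2610035D17Rik at 13.2 CPM (others 7.88 to 8.68). These values include the scaling factor, which was 0.503 for this library. In raw counts 2610035D17Rik was 92, 136, 157 and 105 in PBS+PBS libraries 1 to 4. Library 4 had the largest total of its group, so that gap came with the scaling. PBS+TNF library 1 was high in Malat1 at 211 CPM (others 19.1 to 48.2). Its raw count of 1094 was also the highest, beside 594, 685 and 386 in PBS+TNF libraries 2 to 4. The gap widened with the scaling factor of 0.418. PBS+TNF library 4 was high in Gm43305 at 139 CPM (others 29.7 to 47.4) and low in 4933431E20Rik at 2.53 CPM (others 3.497 to 3.66) and in Oip5os1 at 35.5 CPM (others 47.1 to 48.3). Its scaling factor was 1.44. In raw counts Oip5os1 was 247, 781, 687 and 716 in PBS+TNF libraries 1 to 4, so library 4 was not the lowest before scaling. Gm9926 was low in DEX+PBS library 1 at 0.971 CPM (others 1.69 to 1.83), and Gm1965 was low in PBS+PBS library 1 at 1.97 CPM (others 6.28 to 7.02).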

How the results depend on the processing

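The count of 12 called lncRNAs in PBS+TNF versus PBS+PBS was 10 to 16 under other scaling, no low-count filter, DESeq2, only the groups compared, without DEX+TNF libraries 3 and 4 and with membership on normalized CPM or on PBS+PBS alone. It was 6 at an adjusted p under 0.01, 23 of 122 genes at a mean of 2 CPM or more, 6 of 20 at 10 CPM or more and 6 of 23 without genes that overlap coding exons, all by construction of those rules. Leaving out single libraries gave 7 to 13, with 7 without PBS+TNF library 3. The count of 1 in DEX+TNF versus PBS+TNF was 3 with DESeq2, 0 with the replicate block, 0 with only the groups compared, 0 without DEX+TNF libraries 3 and 4, 0 at an adjusted p under 0.01 and 0 to 3 without single libraries. The count of 0 in DEX+TNF versus DEX+PBS was 3 with DESeq2, 9 without DEX+TNF libraries 3 and 4 and 0 to 4 without single libraries. The counts for DEX+PBS versus PBS+PBS and for the interaction stayed at 0 in every alternative run. The cause was not tested. The replicate numbers did not pair the libraries (same-number correlations of residuals -0.37 to 0.50, 12 of 24 pairs over 0.1), and with the number as a block Gm15889 in DEX+TNF versus PBS+TNF had an adjusted p of 0.0553, and no other count moved.

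Signs changed for small log2 fold changes that were not called. Gas5 with TNF was -0.10 with upper-quartile factors and -0.24 to 0.42 without single libraries, Neat1 -0.56 to 0.97 and Snhg1 -0.33 to 0.58. In DEX+TNF versus DEX+PBS, 2010007H06Rik was -0.37 to 0.0019 and Gm15889 -0.31 to 0.31 without single libraries, and Gm15889 was -0.28 without DEX+TNF libraries 3 and 4. Over all alternatives of the named genes, 700 values kept sign and side of the threshold, 59 lost a call, 19 gained a call and 14 changed sign. The lowest count of a member in a library was 4, which limits the precision of the low genes.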
